A study of Mus musculus with 18 samples.

Results

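Atxn2, Atxn3, Atxn7, Tbp, Atxn10, Ttbk2, Afg3l2 and Elovl5 are mouse counterparts of human genes whose mutations cause inherited ataxias other than spinocerebellar ataxia type 1, and they are described here in the cerebellum of mice with and without a transgene for ataxin-1. They were taken by symbol, as genes of ataxias outside ion channels and glutamate receptor signalling, and not for any measured value. All 8 were among the 22783 genes of the table and among the 13487 that passed the filter on low values (at least 3 of 18 libraries with an FPKM of 1 or more). Each of the 8 passed it in all 18 libraries. FPKM is a fragment count scaled by transcript length and library size, so levels can be compared between genes per length.

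The study sequenced RNA from dissected cerebella of FVB mice, in a series on cholecystokinin receptor signalling and Purkinje cells in ataxic animals. The control genotype, Cck-/-, is labelled as lacking cholecystokinin, a neuropeptide, and the other genotype, ATXN1[30Q]D776/Cck-/-, is labelled Cck-/- too and carries ATXN1[30Q]D776. That name stands for human ataxin-1, the protein of spinocerebellar ataxia type 1, with 30 glutamines in its tract and an aspartate in place of a serine that can be phosphorylated. It is called transgenic from here on. There were 3 libraries of either genotype at each of weeks 5, 12 and 28, and no group with intact Cck was analysed here. The labels name no promoter. In published work, ATXN1[30Q]D776 is driven by regulatory sequence of Pcp2, a gene of Purkinje cells, so the transgene acts in a small share of the cells whose RNA is measured here. Nothing in the labels ties the 3 libraries of a group to separate animals, so p-values measure the spread between libraries, which may be technical.

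Spinocerebellar ataxias are dominant disorders in which the cerebellum, and often its Purkinje cells, which carry the output of its cortex, degenerate. Ataxin-1, ataxin-2, ataxin-3, ataxin-7 and TBP belong to the polyglutamine proteins: an expanded run of CAG codons in the gene lengthens a glutamine tract in the protein. ATXN10 causes disease through an expanded repeat within an intron, while TTBK2, AFG3L2 and ELOVL5 carry truncating or missense mutations. All 8 genes are active in many cell types, and the disorders are named for the cells that suffer most and not for where the genes are expressed. In disease the mutation sits in the gene itself, whereas the mice described here carry no labelled mutation in any of the 8.

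The coding sequence shows which of these genes hold a glutamine tract in the mouse. The longest run of glutamine codons (CAG or CAA) anywhere in the coding sequence is printed below for the 4 polyglutamine genes. The run is in capitals, with 6 codons of flank in lower case. A glutamine tract is what defines this group, and the length of the longest run differs between the mouse genes. Whether each printed run is the counterpart of the tract that is expanded in the human gene was not examined. All are read 5′ to 3′ from the coding transcripts of GENCODE M21 on the mm10 genome.
Atxn2: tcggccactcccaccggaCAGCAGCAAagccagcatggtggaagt
Atxn3: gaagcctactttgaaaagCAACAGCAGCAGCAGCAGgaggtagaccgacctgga
Atxn7: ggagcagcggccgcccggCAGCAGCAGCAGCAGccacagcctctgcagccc
Tbp: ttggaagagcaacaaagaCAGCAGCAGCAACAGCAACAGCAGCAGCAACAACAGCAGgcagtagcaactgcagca

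Mouse Tbp had the longest run, 13 glutamine codons from codon 58 to codon 70, of which 9 were CAG and 4 were CAA. Atxn3 had 6 codons (292 to 297), with a single CAA at the start. Atxn7 had 5 (25 to 29), all CAG. The longest run of Atxn2 was 3 codons and lay near the end of the protein, at codons 1129 to 1131. Atxn10 and Elovl5 had no 2 glutamine codons in a row, and Ttbk2 and Afg3l2 had at most 2. Of 21562 coding genes of the mouse, 9.08% had a run of at least 3, 1.17% of at least 5, 0.863% of at least 6 and 0.241% of at least 13, so a run like that of Tbp occurred in 52 genes. These are sequences of the reference genome. The tracts in the sequenced animals were not analysed here.

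The 8 genes lie on different chromosomes (mm10, positions from the deposited table). Atxn2 lies at chr5:121711609-121814950 on the plus strand, Atxn3 at chr12:101918901-101958243 on the minus strand, Atxn7 at chr14:14012491-14107301 on the plus strand and Tbp at chr17:15499888-15517427 on the plus strand. Atxn10 lies at chr15:85336381-85463836 on the plus strand, Ttbk2 at chr2:120732817-120850584 on the minus strand, Afg3l2 at chr18:67404764-67449136 on the minus strand and Elovl5 at chr9:77917365-77984519 on the plus strand. In GENCODE M21, 4 of the 8 overlap another protein-coding gene of the table: Atxn2 overlaps Sh2b3, Atxn7 overlaps Thoc7 and Tbp overlaps Pdcd2, each on the opposite strand, and Ttbk2 overlaps Cdan1 on its own strand. Whether the reads were counted by strand is not given in the sources used here, so reads in the shared stretch may belong to either gene.

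The windows around the start sites of these genes were mostly rich in CG dinucleotides. RefSeq (GRCm38.p6) gave 9 windows of 300 bases, from 250 before to 50 after a start, for 7 of the 8 genes. Of these, 8 held 16 to 39 CG dinucleotides each, against a median of 7 over 32851 mouse windows, and a second window of Atxn2 held 2. Searched on both strands, the motif TATAAA occurred in the second Atxn2 window, 1 of the 9 (13.6% of all windows). The motif GGGCGG occurred in 7 of the 9 (35.7% of all windows) and CCAAT in 4 of the 9 (37.4%). The windows of Ttbk2 overlap in part and were each counted, so a stretch they share may enter these counts more than once. A match of letters is a description of the window, and these data hold no measurement of what binds there.

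Several libraries stood apart from the rest. For the 8 genes, counts that changed when the sets of 3 libraries named here were left out are given below. Results of the gene lists are not given without these sets. Sums of FPKM lay between 389248 and 441509 per library, read depth is unknown, and correlations of log2 values within a group ran from 0.984 to 0.996. Markers of the choroid plexus, the source of cerebrospinal fluid, stood low in 3 transgenic libraries (mean log2 level 1.34, 1.15 and 1.45 in week 5 replicates 1 and 2 and week 28 replicate 3) and stood between 3.09 and 4.70 in the other 15. Xist, expressed in females, and the sum of Y-linked genes both reached 1 FPKM in 3 transgenic libraries, 1 at each age (week 5 replicate 1, week 12 replicate 2 and week 28 replicate 1). Every group held libraries high in Xist and libraries high in Y-linked genes. Cck-/- week 28 replicate 1 had the lowest summed granule neuron markers of the 18 libraries, at 1260 FPKM against 1678 and 1777 in its group. Its summed markers of blood (1238 FPKM against 358 and 193), meninges and ependyma were the highest of the 18. Cck itself was detected in all groups although each is labelled Cck-/-, at a week 5 level of 20.8 ± 4.51 FPKM (mean ± SD, n = 3) against 98.1 ± 15.6 in the transgenic group. Genotype and this level of Cck cannot be told apart at week 5. The labelled tissue had its defining markers, and none of 8 Purkinje cell markers was at 0 in any group.

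The levels of the 8 genes kept their order in nearly every library. Averaged over the 18 libraries, Atxn10 stood highest at 95.2 FPKM (89.6 to 100.5), followed by Elovl5 at 63.8 (57.2 to 70.1), Afg3l2 at 28.5 (26.8 to 30.3) and Ttbk2 at 22.1 (18.8 to 25.6). Atxn2 stood at 18.7 (17.0 to 20.2), Tbp at 16.8 (14.0 to 17.9), Atxn7 at 7.04 (6.06 to 7.91) and Atxn3 at 6.03 (5.22 to 6.58). Each gene was above the next in this order in 18 of 18 libraries, except Atxn2 and Tbp, where 17 of 18 held it. The ranges of Ttbk2 and Atxn2, of Atxn2 and Tbp and of Atxn7 and Atxn3 overlapped across libraries, while the other neighbours did not. Against all tested genes, whose median level was 11.8 FPKM, Atxn10 lay at percentile 94.4 and Elovl5 at 90.7, and Atxn7 and Atxn3 at 35.0 and 31.3.

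**Figure D1:**
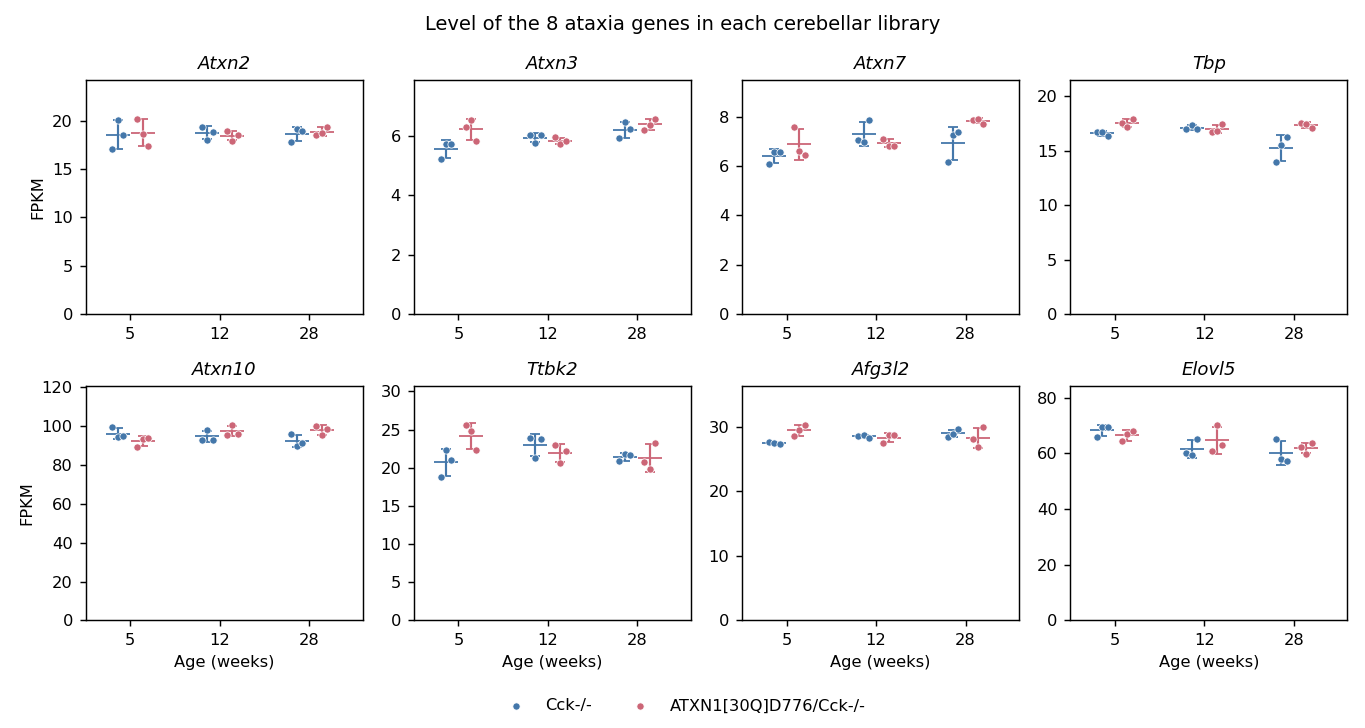
FPKM of each of the 8 genes (vertical axes, each from 0) by age in weeks, with 1 point per library and the mean and SD of the 3 libraries of a group as a bar, for Cck-/- and ATXN1[30Q]D776/Cck-/-. Group means of a gene lie close together in every panel, and the clearest gap is that of Tbp at week 28, where the 3 Cck-/- libraries (14.0 to 16.2) lie below the 3 transgenic ones (17.1 to 17.6).

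These genes varied little over genotype and age. The highest library exceeded the lowest by 1.12 times for Atxn10 and by 1.36 times for Ttbk2, with the other 6 in between, against a median of 1.45 over tested genes. The range of the 6 group means on the log2(FPKM + 1) scale was 0.030 for Atxn2, 0.084 for Atxn10 and 0.095 for Afg3l2. It was 0.17 for Atxn3, 0.18 for Elovl5, 0.19 for Tbp, 0.22 for Ttbk2 and 0.26 for Atxn7. All 8 lay below the median of 0.28 over 13487 tested genes. Of the 8, Atxn7 alone lay above the median of 0.24 over the 8502 genes with a mean level between those of Atxn3 and Atxn10. The group means of Atxn2 ran from 18.5 to 18.9 FPKM, and its percentile of 0.00741 puts it among the tested genes with the narrowest range. Among genes of other ataxias the median range was 0.43 for 23 dominant ones, 0.18 for 31 recessive ones and 0.19 for 5 other polyglutamine disease genes, with 6, 22 and 3 of them below the median of all tested genes.

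**Figure D2:**
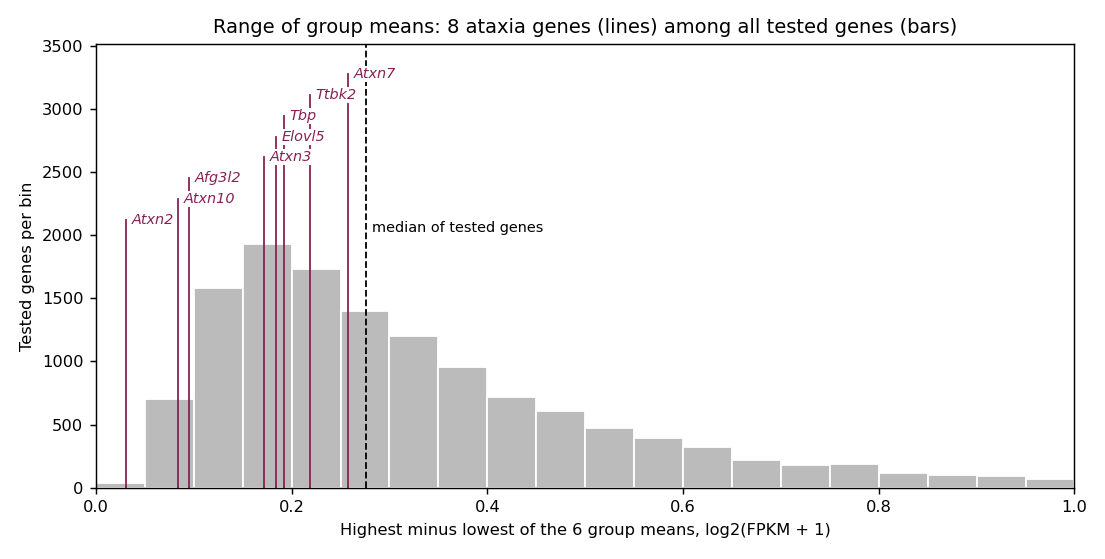
Number of tested genes (vertical axis) by the highest minus the lowest of the 6 group means on the log2(FPKM + 1) scale (horizontal axis, bins of 0.05), with the 8 ataxia genes as vertical lines whose heights only separate the names, and 466 genes with a range above 1 not drawn. All 8 lines lie to the left of the dashed median of 0.28, from 0.030 for Atxn2 to 0.26 for Atxn7.

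The genotype effect asks how transgenic differed from Cck-/- libraries of the same age. With limma and a Benjamini-Hochberg adjustment over all 13487 tested genes, none of the 8 was called at week 5 (7.67% of all tested genes were) or at week 12 (1.36%), and 1 of 8, Tbp, was called at week 28 (10.7%), where it was higher in transgenic libraries. At an unadjusted p under 0.05, 3 of 8 passed at week 5 (22.3% of all tested genes), 0 at week 12 (12.0%) and 2 at week 28 (25.8%). Groups that did not overlap were found for 4, 0 and 2 of the 8 at these ages (31.2%, 16.7% and 26.1% of all tested genes). The median of the 8 log2 fold changes was 0.082 at week 5, -0.016 at week 12 and 0.040 at week 28, against 0.00034, 0.0023 and 0.0046 over all tested genes. The 95% confidence intervals of the 24 differences stayed between -0.22 and 0.37 on the log2 scale. In bulk tissue, fewer cells of a type and less RNA per cell cannot be told apart.

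Tbp encodes the TATA-binding protein, a subunit shared by the complexes that place all 3 RNA polymerases at promoters. At week 28 it stood at 14.0, 15.5 and 16.2 FPKM in the Cck-/- libraries and at 17.6, 17.4 and 17.1 in the transgenic ones. The groups did not overlap, and the Cck-/- libraries of that age were the lowest 3 of all 18. In limma the transgenic level was higher by 0.18 on the log2 scale (95% interval 0.09 to 0.27, SE 0.044, adjusted p = 0.0171), from 15.2 ± 1.16 to 17.4 ± 0.247 FPKM (mean ± SD, n = 3).

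Tbp was not called at the other ages. The week 5 libraries stood at 16.7, 16.7 and 16.3 FPKM in Cck-/- and at 17.5, 17.1 and 17.9 in transgenic mice, groups that do not overlap (0.07, 95% interval -0.02 to 0.17, adjusted p = 0.349; limma). At week 12 they stood at 17.0, 17.4 and 17.0 against 16.7, 16.8 and 17.5 FPKM (-0.01, -0.10 to 0.08, adjusted p = 0.970; limma). The transgenic libraries thus stayed between 16.7 and 17.9 FPKM at all ages, and the values below 16.3 FPKM were those of the Cck-/- libraries at week 28. Averaged over weeks 12 and 28 the effect on Tbp was 0.08 (adjusted p = 0.0979, limma), and 0 of the 8 genes were called in that comparison (11.4% of all tested genes). At an unadjusted p under 0.05, Tbp and Atxn10 passed there, 2 of 8 against 24.8%.

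The call of Tbp at week 28 was kept in 16 of 18 fits that each left out 1 library and in 28 of all 32 alternative settings. Without transgenic replicate 1 or 2 of that age the difference was 0.17 or 0.18 and the adjusted p by limma was 0.0716 or 0.0677, and a fit of the 6 week 28 libraries alone gave 0.191. Without the 3 libraries that held both Xist and Y-linked RNA it was 0.106, and leaving out those lowest in choroid plexus markers gave 0.0369. Cck-/- replicate 1, the lowest at 14.0 FPKM, was the only library of its group with Y-linked RNA, and without it the difference was 0.12 (adjusted p = 0.0354, limma). This library also had the lowest granule neuron and the highest blood marker sums of the 18 (1260 and 1238 FPKM). The part of that in the Tbp result was not tested. Pdcd2, the gene that overlaps Tbp, differed by 0.042 at week 28 (adjusted p = 0.750, limma).

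Markers of cell types moved with the same contrast at week 28. All 8 Purkinje cell markers fell, with a median log2 fold change of -1.26 and a summed level of 3691 to 4005 FPKM in Cck-/- and 1439 to 2753 in transgenic libraries. Of 8 microglia markers 5 rose and none fell (88.3 to 131 against 145 to 227 FPKM summed), and of 8 oligodendrocyte markers 2 rose. Of 8 markers of Bergmann glia and astrocytes 3 rose and 3 fell, with a median of 0.22 and sums of 876 to 1094 against 1045 to 1145 FPKM. No marker of granule neurons, inhibitory interneurons or endothelium was called. No choroid plexus marker was called, and their sums ran from 1200 to 2692 and from 59.4 to 1980 FPKM. None of these markers was at 0, and their part in the Tbp result was not tested.

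**Figure D3:**
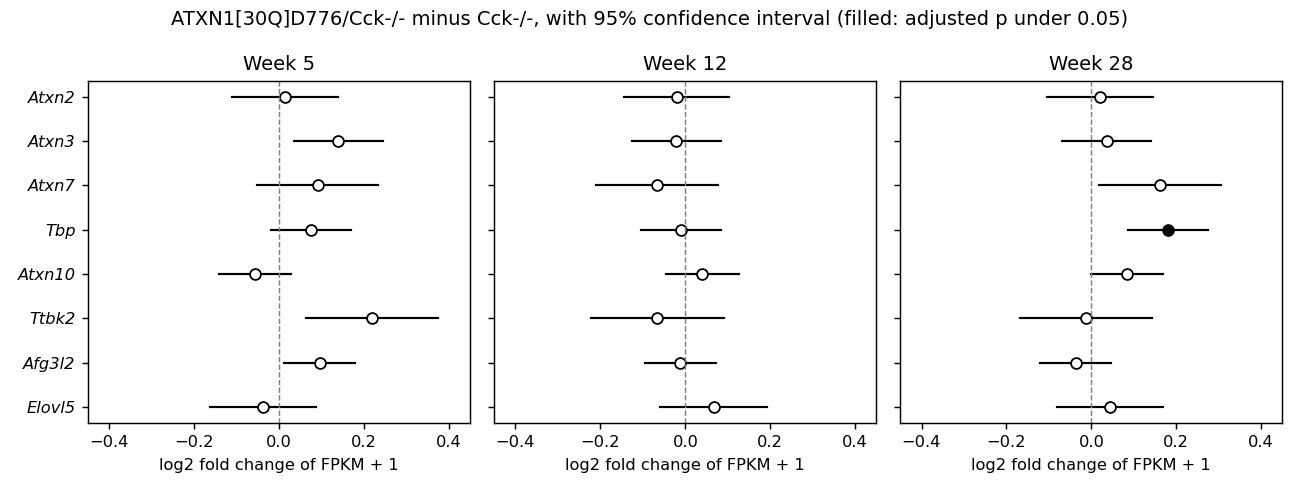
Difference between ATXN1[30Q]D776/Cck-/- and Cck-/- libraries for each of the 8 genes at weeks 5, 12 and 28, as the log2 fold change of FPKM + 1 (horizontal axes, points) with its 95% confidence interval (lines), filled where the adjusted p by limma was under 0.05. The single filled point is Tbp at week 28 at 0.18, and at week 12 all 8 intervals include 0.

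Ataxin-3 is a deubiquitinase that works with the p97 ATPase in protein degradation. Atxn3 stood at 5.22, 5.74 and 5.73 FPKM in Cck-/- and at 6.29, 6.54 and 5.84 in transgenic libraries at week 5. The groups did not overlap, but the difference of 0.14 (95% interval 0.03 to 0.24) did not pass (adjusted p = 0.104, limma). Its libraries stood at 6.02, 5.77 and 6.03 against 5.96, 5.74 and 5.81 FPKM at week 12, and their week 28 levels were 5.92, 6.47 and 6.22 against 6.21, 6.38 and 6.58. Both of these pairs of groups overlapped, with differences of -0.02 (adjusted p = 0.930) and 0.04 (adjusted p = 0.688; limma).

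Ataxin-2 binds RNA and poly(A)-binding protein and takes part in translation and in stress granules. Atxn2 stood at 17.0, 20.1 and 18.6 FPKM in Cck-/- and at 20.2, 18.6 and 17.4 in transgenic libraries at week 5, the age at which its replicates spread most. The group means were 18.7 ± 0.658 and 18.5 ± 0.502 at week 12 and 18.6 ± 0.736 and 18.9 ± 0.472 at week 28. Its differences of 0.01, -0.02 and 0.02 at the 3 ages each had a 95% interval within -0.15 to 0.14.

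Ataxin-7 is a subunit of SAGA, a chromatin complex that acetylates and deubiquitinates histones. At week 28 Atxn7 stood at 6.14, 7.23 and 7.37 FPKM in Cck-/- and at 7.87, 7.91 and 7.71 in transgenic libraries. These groups did not overlap, yet the difference of 0.16 (95% interval 0.02 to 0.30) did not pass (adjusted p = 0.145, limma). At week 5 the libraries stood at 6.06, 6.56 and 6.55 against 7.60, 6.60 and 6.44 FPKM, and at week 12 at 7.06, 6.96 and 7.86 against 7.09, 6.82 and 6.83. A single library thus set the mean apart in the transgenic group at week 5 and in the Cck-/- group at week 12.

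Ataxin-10 is an armadillo-repeat protein that supports neuron survival in culture. Atxn10 was the most abundant of the 8, at 96.3 ± 2.78 against 92.4 ± 2.50 FPKM (Cck-/- against transgenic) at week 5, 94.7 ± 3.05 against 97.5 ± 2.70 at week 12 and 92.5 ± 3.21 against 98.0 ± 2.36 at week 28 (mean ± SD, n = 3). The difference was -0.06 at week 5, where the groups did not overlap, and 0.08 at week 28, where they did, and neither passed (adjusted p = 0.432 and 0.202, limma). The change of this difference from week 5 to week 28 was 0.14 (95% interval 0.02 to 0.26) and did not pass either (adjusted p = 0.177, limma).

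Ttbk2, tau tubulin kinase 2, is needed to start the growth of primary cilia from the mother centriole. At week 5 it stood at 18.8, 22.3 and 21.0 FPKM in Cck-/- and at 25.6, 24.8 and 22.3 in transgenic libraries. The lowest transgenic library and the highest Cck-/- library were nearly level, and the difference of 0.22 (95% interval 0.06 to 0.37), the largest of the 24 genotype differences, did not pass (adjusted p = 0.0860, limma). At week 12 the levels were 23.9, 21.3 and 23.8 against 22.9, 20.6 and 22.2 FPKM, and at week 28 they were 20.9, 21.8 and 21.7 against 20.8, 19.8 and 23.3. Both pairs overlapped. The week 12 difference was lower than that of week 5 by 0.28 (95% interval 0.06 to 0.50), which did not pass (adjusted p = 0.276, limma).

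Afg3l2 encodes a subunit of the m-AAA protease of the inner mitochondrial membrane, which degrades damaged proteins and processes others. Its 3 Cck-/- libraries at week 5 were nearly identical at 27.6, 27.5 and 27.4 FPKM, and the transgenic ones stood above them at 28.5, 29.6 and 30.3. That difference was 0.10 (95% interval 0.01 to 0.18, adjusted p = 0.162; limma) and did not pass. The group means were 28.6 ± 0.256 against 28.3 ± 0.732 at week 12 and 29.0 ± 0.592 against 28.3 ± 1.57 at week 28, where the groups overlapped. The 4 genes without overlap at week 5 were Atxn3, Tbp and Afg3l2, higher in transgenic libraries, and Atxn10, lower.

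Elovl5 encodes an elongase that lengthens polyunsaturated fatty acids. Its Cck-/- means were 68.3 ± 2.03, 61.6 ± 3.23 and 60.1 ± 4.26 FPKM at weeks 5, 12 and 28 (mean ± SD, n = 3), and the transgenic ones were 66.5 ± 1.89, 64.6 ± 4.89 and 61.9 ± 1.93. The groups overlapped at each age, with differences of -0.04, 0.07 and 0.04 whose 95% intervals all lay between -0.16 and 0.19. None of these passed (adjusted p = 0.764, 0.735 and 0.681, limma).

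Whether the genotype effect differed between ages was tested as an interaction. None of the 8 was called between weeks 5 and 12 (0.667% of all tested genes were), between weeks 12 and 28 (0%) or between weeks 5 and 28 (3.65%). At an unadjusted p under 0.05, 2, 2 and 3 of the 8 passed (12.1%, 10.1% and 19.7%). The lowest adjusted p values were 0.276 for Ttbk2, 0.406 for Tbp and 0.177 for Atxn10, in that order of comparisons (limma). The effect on Tbp at week 28 exceeded that at week 12 by 0.19 (95% interval 0.06 to 0.32) and that at week 5 by 0.11 (-0.03 to 0.24), so the call at week 28 alone is not shown to be a difference between ages.

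With age, 3 of the 8 genes changed within Cck-/- libraries and none within transgenic ones. From week 5 to week 28 in Cck-/-, 2 of 8 were called (33.7% of all tested genes): Atxn3 rose and Elovl5 fell. From week 12 to 28 Tbp fell (1 of 8, 9.65% of all tested genes), and from week 5 to 12 none passed (11.8%). In transgenic libraries 0 of 8 were called from week 5 to 12 (1.19%), from week 12 to 28 (23.8%) and from week 5 to 28 (36.9%). At an unadjusted p under 0.05, the spans 5 to 12, 12 to 28 and 5 to 28 gave 2, 1 and 3 of the 8 in Cck-/- (25.5%, 26.3% and 44.2% of all tested genes) and 0, 2 and 2 in transgenic libraries (13.5%, 37.5% and 46.7%). Groups that did not overlap numbered 5, 1 and 4 in Cck-/- (35.3%, 30% and 47.5%) and 1, 2 and 3 in transgenic libraries (17.7%, 38.1% and 49.8%). Age effects within the 2 genotypes were not shown to differ, since no interaction passed. Comparisons that share a group of libraries, such as the genotype effect at week 28 and the Cck-/- changes up to week 28, share its deviations.

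In Cck-/- libraries the levels of Elovl5 were 66.0, 69.6 and 69.3 FPKM at week 5. They were 60.2, 59.3 and 65.3 at week 12, and 65.0, 58.1 and 57.2 at week 28. The oldest group lay below the youngest with no overlap, with a narrow gap between 65.0 and 66.0. The change from week 5 to 28 was -0.18 (95% interval -0.31 to -0.06, SE 0.059, adjusted p = 0.0256; limma). Without Cck-/- replicate 2 or 3 of week 5 or replicate 2 or 3 of week 28 it no longer passed (adjusted p = 0.0785, 0.0753, 0.0857 and 0.0982, limma). In transgenic libraries the week 5 levels of Elovl5 were 64.4, 67.0 and 68.1 FPKM, above the week 28 levels of 62.4, 59.8 and 63.6, also without overlap (-0.10, 95% interval -0.23 to 0.02, adjusted p = 0.192; limma).

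Atxn3 rose by 0.13 from week 5 to 28 in Cck-/- libraries (95% interval 0.03 to 0.24, SE 0.049, adjusted p = 0.0458; limma), from 5.56 ± 0.296 to 6.20 ± 0.274 FPKM. This call was the least stable of the 4: it held in 4 of 18 fits that each left out 1 library, and reached an adjusted p of 0.183 without Cck-/- week 5 replicate 1 (limma). In transgenic libraries the change was 0.03 (adjusted p = 0.631, limma). Tbp fell by 0.16 from week 12 to 28 in Cck-/- libraries (95% interval -0.25 to -0.07, SE 0.044, adjusted p = 0.0351; limma), from 17.1 ± 0.236 to 15.2 ± 1.16 FPKM. It no longer passed without any 1 of Cck-/- week 12 replicates 1, 2 and 3 (adjusted p = 0.0761, 0.0985 and 0.0793, limma) or week 28 replicates 1 and 2 (0.0885 and 0.0573). It also missed the threshold when the 3 libraries lowest in choroid plexus markers were left out (adjusted p = 0.0589, limma) or the 3 with both Xist and Y-linked RNA (0.0661). Those libraries are all transgenic, so leaving them out changes the estimated spread and the adjustment, but not the Tbp difference within Cck-/-. From week 5 to 28 the Tbp difference was -0.12 (adjusted p = 0.0526, limma).

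Other members came near the threshold with age. In transgenic libraries Atxn7 stood 0.17 higher at week 28 than at week 5 (95% interval 0.02 to 0.31, adjusted p = 0.0631; limma), with groups that did not overlap, and passed without transgenic week 5 replicate 1, its high library of that age (0.23, adjusted p = 0.0205; limma). Ttbk2 stood 0.18 lower (95% interval -0.33 to -0.02, adjusted p = 0.0671; limma) with overlapping groups. Markers of oligodendrocytes, the myelin-forming cells, moved with age in Cck-/- libraries: all 8 fell from week 5 to 28 (median -1.23), and their summed level went from 4943 to 5980 FPKM down to 2025 to 2626. Of 8 microglia markers 5 rose over the same span (62.1 to 72.9 against 88.3 to 131 FPKM summed), and no Purkinje cell marker was called. Of 7 granule neuron markers 5 fell (median -0.44, summed level 2113 to 2234 against 1260 to 1777 FPKM). Of 5 inhibitory interneuron markers 4 rose (median 0.40, 88.8 to 97.7 against 128 to 144 FPKM), and of 6 endothelial markers 1 rose and 3 fell (133 to 141 against 105 to 116 FPKM). None of these markers was at 0. Their part in the age changes of Elovl5 and Atxn3 was not tested.

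The closest partners of these genes across libraries were found by Pearson correlation of log2 levels over the 18 libraries. All values share the same libraries, groups and scaling, so they are given as a description. Atxn7 was closest to Chd8, a chromatin remodeller (r = 0.93), Usp7 (0.92) and Sf1 (0.92), and Ttbk2 to Heatr5b (0.91), Gramd1b (0.88) and Med12l (0.87). Elovl5 was closest to Dram2 (0.88), Rassf8 (0.88) and Rab31 (0.86), and Atxn3 to Plekha6 (0.86), Usp24 (0.86) and Lifr (0.85). The nearest gene to Tbp was Btaf1 (0.85), whose product removes TBP from DNA, before Fam178a (0.83) and Smek1 (0.82). Atxn2 was nearest to Rbm27 (0.84), Ccdc77 (0.84) and Setd1b (0.83), Atxn10 to Ankra2 (0.84), Psmd12 (0.82) and S100a4 (0.80), and Afg3l2 to Tbc1d30, Lyrm9 and Wdyhv1 (0.78 each). Among the 28 pairs of the 8 genes themselves, the highest r was that of Atxn3 with Atxn7 (0.66) and of Atxn2 with Ttbk2 (0.65), and the lowest that of Atxn10 with Ttbk2 (-0.59) and with Atxn2 (-0.56).

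TFIID and the general transcription factors work with TBP. Of 25 tested genes of this list, 1 rose at week 5 and none was called at week 12, beside 7.67% and 1.36% of all tested genes. At week 28, 1 rose and none fell (median 0.031), where 10.7% of all tested genes were called. It was Btaf1, named above for its likeness to Tbp, whose Cck-/- mean of 6.97 ± 0.261 FPKM lay below the transgenic mean of 7.98 ± 0.208 (0.17, SE 0.042, adjusted p = 0.0162; limma), a call lost without transgenic week 28 replicate 2 (adjusted p = 0.0802, limma). From week 5 to 28, 2 of the 25 rose and 11 fell in Cck-/- libraries, where 33.7% of all tested genes were called in either direction, and 4 rose and 4 fell in transgenic ones, where 36.9% were. In transgenic libraries Gtf2e2, a subunit of TFIIE, changed by -0.35, Gtf2a1, a subunit of TFIIA, by 0.28 and Taf1b, a factor of RNA polymerase I, by 0.26 (adjusted p = 0.00038, 0.00051 and 0.00106, limma). Bdp1, a factor of RNA polymerase III, changed by -0.28 in Cck-/- libraries (adjusted p = 0.00129, limma).

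Of 24 tested genes of SAGA, the complex of ataxin-7, 3 fell at week 5 and none rose, none was called at week 12, and 1 rose at week 28, beside 7.67%, 1.36% and 10.7% of all tested genes. Atxn7l3b, a relative of the SAGA adaptor Atxn7l3, fell at week 5 from 86.6 ± 3.10 to 74.2 ± 0.727 FPKM (-0.22, SE 0.035, adjusted p = 0.00159; limma). It also fell with age in Cck-/- libraries, by 0.54 from week 5 to 28 (adjusted p = 6.71e-08, limma). Supt3, a core subunit, rose by 0.32 in the same comparison, and in transgenic libraries Eny2, of the deubiquitinating module, rose by 0.29 from week 5 to 28 and Taf10 fell by 0.36 from week 12 to 28 (adjusted p = 0.00102, 0.00292 and 0.00287, limma). Counted from week 5 to 28, 2 of 24 rose and 4 fell in Cck-/- and 6 rose and 4 fell in transgenic libraries, beside 33.7% and 36.9% of all tested genes called.

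Ataxin-2 acts with RNA granule proteins and ataxin-3 with p97 and ubiquitin chaperones. By genotype, 7.67%, 1.36% and 10.7% of all tested genes were called at weeks 5, 12 and 28. Of 13 RNA granule genes 1 fell at week 5, none was called at week 12 and 2 rose at week 28 (Tardbp by 0.14 and Fmr1, named after its value was seen, by 0.14, each lost without transgenic replicate 1 of that age, with adjusted p = 0.161 and 0.171; limma). With age, Caprin1 and Pabpc1, the poly(A)-binding protein gene, fell by 0.26 and 0.28 in Cck-/- libraries from week 5 to 28 (adjusted p = 7.82e-05 and 0.00063, limma), and Lsm12, an ataxin-2 partner, fell by 0.23 from week 5 to 12. Tardbp rose by 0.20 in transgenic libraries from week 5 to 28. Over that span 5 of the 13 fell and none rose in Cck-/- libraries, and 4 rose and 2 fell in transgenic ones. The shares of all tested genes called were 33.7% and 36.9%. From week 5 to 12 in Cck-/- libraries, 1 of the 13 rose and 2 fell, beside 11.8%. Of 15 genes of p97 and ubiquitin chaperones 1 fell at week 5, none was called at week 12 and 1 rose at week 28. Uchl1, a neuronal ubiquitin hydrolase, rose by 0.27 over weeks 12 and 28 (SE 0.056, adjusted p = 0.00501; limma). Ufd1l, a p97 cofactor, rose by 0.34 and Dnajb1, a heat shock protein, fell by 0.24 in transgenic libraries from week 5 to 28 (adjusted p = 0.000655 and 0.00641, limma). Of the 15 genes, 1 rose and 2 fell in Cck-/- libraries over that span, and 2 rose and 2 fell in transgenic ones. The shares of all tested genes were again 33.7% and 36.9%.

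The m-AAA protease has a second subunit, paraplegin, encoded by Spg7, and the mouse has Afg3l1 as well. Spg7 fell at week 5 from 25.5 ± 0.517 to 21.3 ± 1.23 FPKM (-0.25, SE 0.053, adjusted p = 0.0108; limma) and over weeks 12 and 28 by 0.17 (SE 0.037, adjusted p = 0.00805; limma), whereas Afg3l2 was not called at any age. Spg7 was named after its values were seen. The week 5 call was lost without transgenic replicate 2 (adjusted p = 0.0570, limma), and the difference between the 2 genes was not tested. Of 19 genes of inner membrane proteases and prohibitins, 2 fell at week 5, none was called at week 12 and 1 fell at week 28, beside 7.67%, 1.36% and 10.7% of all tested genes. From week 5 to 28, 3 rose and 3 fell in Cck-/- libraries and 2 rose and 8 fell in transgenic ones, beside 33.7% and 36.9% of all tested genes. Afg3l1 and Mcu, the mitochondrial calcium uniporter, fell by 0.33 and 0.42 in Cck-/- libraries (adjusted p = 0.0011 and 7.92e-05, limma). Phb, a prohibitin, fell by 0.34 from week 12 to 28 and Parl rose by 0.23 from week 5 to 28 in transgenic libraries.

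Of 26 genes of the primary cilium and centriole, 1 rose at week 5, none was called at week 12 and 1 rose at week 28, beside 7.67%, 1.36% and 10.7% of all tested genes. Averaged over weeks 12 and 28, 1 of the 26 was called by genotype, beside 11.4% of all tested genes. It was Ttbk1, the relative of Ttbk2 that is most active in neurons (-0.16, SE 0.048, adjusted p = 0.0435, limma). Ttbk1 also fell by 0.46 from week 5 to 28 in transgenic libraries (adjusted p = 0.000178, limma). Ccp110, which caps the centriole and is removed when a cilium forms, fell by 0.34 in Cck-/- libraries over that span, and the transport genes Ift52 and Ift172 rose by 0.34 and 0.25 (adjusted p = 0.000147, 2.24e-05 and 0.00133, limma). In all 6 of 26 rose and 4 fell in each genotype from week 5 to 28, where 33.7% of all tested genes were called in Cck-/- and 36.9% in transgenic libraries.

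Relatives of Elovl5 were called by genotype where Elovl5 was not, although the difference between genes was not tested. Of 21 tested genes of fatty acid elongation and desaturation 1 rose and 4 fell at week 5, 1 fell at week 12, and 1 rose and 3 fell at week 28, beside 7.67%, 1.36% and 10.7% of all tested genes. Elovl6, which elongates saturated chains, fell at all 3 ages, from 21.7 ± 1.48 to 17.3 ± 1.22 FPKM at week 5, from 18.1 ± 0.754 to 14.5 ± 0.607 at week 12 and from 15.4 ± 0.200 to 11.7 ± 0.277 at week 28 (-0.32, -0.30 and -0.37, adjusted p = 0.00289, 0.0104 and 0.000431; limma). The week 12 call was lost without Cck-/- week 12 replicate 1 (adjusted p = 0.0702, limma). Elovl1, an elongase of very long saturated chains, fell at week 5 alone, from 19.3 ± 1.86 to 13.4 ± 0.584 FPKM (-0.48, SE 0.076, adjusted p = 0.00134; limma). Its effect at week 28 differed from that at week 5 by 0.60 (adjusted p = 0.0110, limma). Elovl4, the elongase gene mutated in another dominant ataxia, fell at week 5 by 0.20, a call lost without transgenic replicate 2 (adjusted p = 0.133, limma). Oligodendrocyte markers moved with the week 5 contrast, with 6 of 8 lower (4943 to 5980 against 3947 to 4066 FPKM summed). Of 5 inhibitory interneuron markers 4 were higher (median 0.39, 88.8 to 97.7 against 115 to 130 FPKM), and of 6 endothelial markers 1 was higher and 2 were lower (133 to 141 against 109 to 125 FPKM). None of these markers was at 0, and their part in these results was not tested.

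In Cck-/- libraries Elovl1 fell by 0.99 from week 5 to 12 and Elovl4 by 0.50 from week 5 to 28, and Ptpla, a dehydratase of the elongation cycle, fell by 0.94 (adjusted p = 1.12e-06, 1.07e-05 and 6.71e-08, limma). Elovl6 fell by 0.53 from week 5 to 28 in transgenic libraries (adjusted p = 1.59e-05, limma). Out of 21 genes, 2 rose and 8 fell in each genotype over that span, where 33.7% of all tested genes were called in Cck-/- and 36.9% in transgenic libraries.

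**Figure D4:**
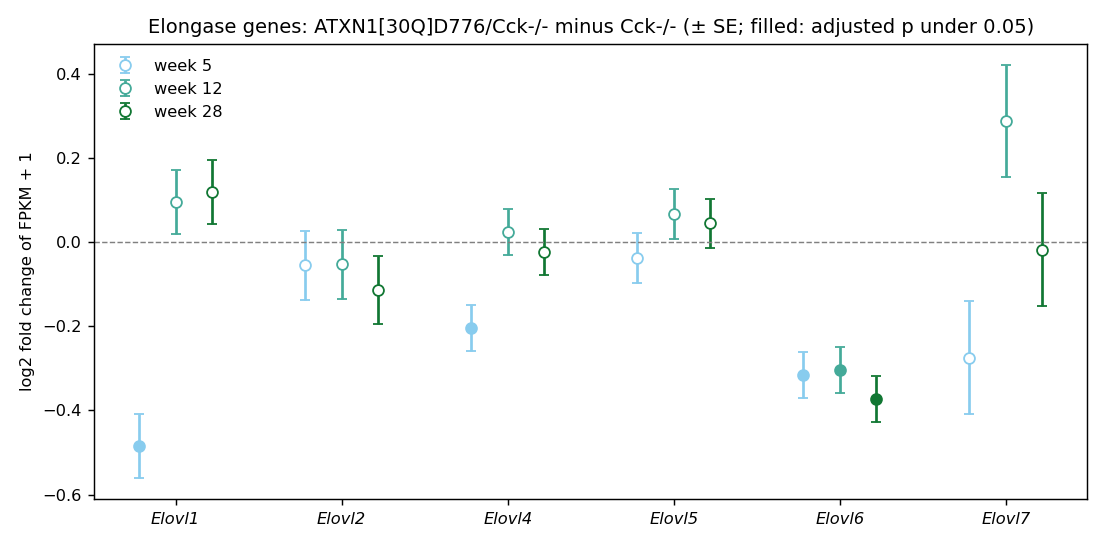
Log2 fold change of FPKM + 1 between ATXN1[30Q]D776/Cck-/- and Cck-/- libraries (vertical axis, points with their SE) for the 6 tested elongase genes at weeks 5, 12 and 28, filled where the adjusted p by limma was under 0.05. Elovl5 lies near 0 at each age, Elovl6 lies between -0.30 and -0.37, and Elovl1 is low at week 5 alone.

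Genes of other ataxias were examined for comparison, and at week 28 some of the dominant ones fell. Of 23 other dominant ataxia genes, 4 fell and 1 rose at week 5, 2 fell at week 12 and 8 fell at week 28, with none higher at the last 2 ages, beside 7.67%, 1.36% and 10.7% of all tested genes. Among them Bean1 differed by -0.92 at week 28, from 4.18 ± 0.259 FPKM in Cck-/- to 1.73 ± 0.0395 in transgenic libraries (SE 0.094, adjusted p = 1.93e-05; limma). A further 2 were chosen after their values were seen: Itpr1, the calcium release channel of the endoplasmic reticulum (-1.48, adjusted p = 0.00012; limma), and Cacna1g, a T-type calcium channel (-0.88, adjusted p = 0.000878; limma). Itpr1 is also 1 of the 8 Purkinje cell markers, all of which were lower. None of the 5 other polyglutamine disease genes was called at any age by genotype, and mouse Atxn1 stood at 5.74 ± 1.51 against 5.96 ± 0.461 FPKM at week 28. At that age Htt, the gene of Huntington disease, differed by 0.07 (adjusted p = 0.631, limma). From week 5 to 28 in Cck-/- libraries, 1 of these 5 genes rose and 1 fell, beside 33.7% of all tested genes. The 1 that fell was Cacna1a, by 0.29 (adjusted p = 0.0386, limma), a call that was lost without Cck-/- week 28 replicate 1 (0.178).

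Of 31 recessive ataxia genes, 2 fell at week 5, 1 fell at week 12, and 1 rose and 1 fell at week 28. At these ages 7.67%, 1.36% and 10.7% of all tested genes were called. From week 5 to 28, 5 of the 31 rose and 4 fell in Cck-/- libraries, beside 33.7% of all tested genes. In transgenic libraries 3 rose and 6 fell over that span, beside 36.9%. Phyh, which breaks down branched fatty acids, rose by 0.43 and Cyp27a1, a sterol hydroxylase, by 0.69 in transgenic libraries from week 5 to 28, and Ttpa, the vitamin E transfer protein, fell by 0.60 in Cck-/- libraries (adjusted p = 8.04e-05, 8.58e-06 and 8.04e-05, limma). The median log2 fold change at week 28 was 0.040 for the 8 genes, -0.077 for the 23 dominant, 0.0039 for the 5 polyglutamine and -0.0079 for the 31 recessive genes, against 0.0046 over all tested genes.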

How the data were processed

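RNA sequencing of dissected cerebella was analysed in 18 libraries. Per the labels' protocols, RNA was extracted with TRIzol and RNeasy and libraries were made with TruSeq. The authors deposited 1 table of FPKM values per gene and library; per the submitters' processing notes, TopHat2 2.0.11, Cufflinks 2.2.1 and the mm10 genome were used. For the annotation, the filters, the counting strand and the read depth, values were not given in the sources used here, so no counting interval can be given. The table's 36 columns of confidence bounds were not used, and human transgene reads were not analysed.

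From the table, log2(FPKM + 1) was fitted with limma 3.58.1 (trended variance, R 4.3.3) on 6 group means with 12 residual degrees of freedom, for 13487 genes with an FPKM of 1 or more in 3 libraries. Each of 13 comparisons was adjusted by Benjamini-Hochberg over all tested genes, two-sided, and called at an adjusted p under 0.05. Fold changes on this scale understate those of low genes. The fit was tested on simulated data.

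The 8 genes, the gene lists and the markers were chosen with earlier results of these data known. From each list, up to 4 called genes with the smallest p in genotype or age comparisons are named, and for each of the 8 genes the 3 most correlated genes. Values of some genes that this rule names are not reported here. Alternatives were other pseudocounts, filters, normalizations, variance models and fits, a replicate block and leaving out each library. Chosen after seeing the data were leaving out the 3 libraries lowest in choroid plexus genes, leaving out the 3 that held Xist together with Y-linked RNA, and Xist as a covariate. Replicate numbers did not pair the libraries.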

Additional observations from a re-analysis of the deposited data

Results flagged for a closer look

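None of the 8 ataxia genes met a rule for a closer look, but 9 genes of the lists reported here did, because the genotype effect differed between ages in limma's interaction test (adjusted over all 13487 tested genes). Values are log2 differences of the transgenic effect, later age minus week 5. Of all tested genes, 0.667% were called between weeks 5 and 12 and 3.65% between weeks 5 and 28. Between weeks 5 and 28 calls came from 5 of 23 dominant ataxia genes, 2 of 24 SAGA genes and 1 of 13 RNA granule genes. They also came from 1 of 26 cilium genes and, of 21 elongation and desaturation genes, 2 higher and 1 lower. No other list gave a call.

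Between weeks 5 and 12 the effect on Elovl1 differed by 0.58, a call lost without Cck-/- week 5 replicate 3 (adjusted p = 0.0699, limma). Between weeks 5 and 28 it differed by 0.60 for Elovl1, 0.23 for Atxn7l3b, 0.34 for Ccp110, 0.30 for Pabpc1, 0.33 for Ptpla and 0.24 for Usp22. The effect was lower at week 28 than at week 5, with differences of -0.44 for Fads6, -1.50 for Itpr1 and -0.96 for Cacna1g. Itpr1 is also 1 of the 8 Purkinje cell markers, of which 4 were called lower in this comparison and none higher. Of the comparisons of week 28 with week 5, those of Elovl1 and Itpr1 passed in all 18 fits that left out 1 library, and each of the others was lost without at least 1 library. Genotype and the level of Cck cannot be told apart at week 5, which enters each of these differences.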

How the results depend on the processing

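Among values of the 8 genes under alternative settings, 3252 stayed on their side of the threshold, 36 passed it newly and 40 no longer passed. The sign changed in 98 of 3328, over 34 of 104 results, and 0 of those 98 were called in either fit.

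Counts of the 8 genes called that moved beyond 1.5 times were as follows. With quantile normalization they were 1 at week 5 (0 in the main analysis), 2 at week 28 (1), 2 averaged over weeks 12 and 28 (0), 0 in Cck-/- from week 12 to 28 (1), 1 in Cck-/- from week 5 to 28 (2) and 1 in transgenic libraries from week 5 to 28 (0). With library weights they were 3 at week 5, 2 at week 28, 3 averaged, 1 and 4 for the interactions of week 28 with weeks 12 and 5 (0 each), 1 and 6 in Cck-/- from week 5 to 12 (0) and to 28, and 1 and 3 in transgenic libraries from week 12 to 28 (0) and from week 5 to 28. Median-ratio rescaling gave 1 in the last of these. A fit of the compared groups alone gave 0 at week 28 and 0 in Cck-/- from week 12 to 28 and from week 5 to 28. Leaving out the 3 libraries that held Xist together with Y-linked RNA, the count was 0 at week 28, 0 in Cck-/- from week 12 to 28 and 1 from week 5 to 28, and without the 3 lowest in choroid plexus genes it was 0 and 1 in those age spans. The libraries left out are all transgenic, so within Cck-/- only the estimated spread and the adjustment could change, not the differences. No filter on low values gave 1 in Cck-/- from week 5 to 28, and a mean FPKM of at least 5 gave 3 there, Tbp being added. With the Xist level as a covariate that count stayed 2, with Tbp in place of Atxn3. The cause of these differences was not tested.

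Leaving out 1 library gave 0 to 1 calls at week 28, 0 to 1 averaged, 0 to 1 in Cck-/- from week 12 to 28, 0 to 2 from week 5 to 28, and 0 to 1 in transgenic libraries from week 5 to 28.

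Libraries with the same replicate number deviated together no more than others. The r between their deviations ran from -0.388 to 0.435 over 45 pairs (median -0.018). Over 90 pairs of different number it ran from -0.485 to 0.478 (median 0.037). Of 18 libraries, 3 were nearest to their own number. With a replicate block, 1 of the 8 genes was called in Cck-/- from week 5 to 28 in place of 2, Atxn3 being lost (adjusted p = 0.0572, limma), and the block changed no other count of the 8. Read depth is unknown, so its limit on the lower levels, those of Atxn3 and Atxn7, cannot be given.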
